A study of Mus musculus with 12 samples.

Results

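The 40 genes described here are a set of cell cycle genes named by symbol and annotated as protein-coding, 23 of them acting in mitosis and 17 in DNA replication and the entry into S phase. They are 40 of the 55322 genes in the table, and 40 of 40 passed the filter on low values (an FPKM of 1 or more in 3 or more libraries) that 14538 genes passed in all. The list names genes by symbol, and no value of these samples enters the rule. It was drawn up, however, with earlier results on cell cycle genes in these data known. The counts below are therefore no independent support of those results. RNA was sequenced from 12 samples of mouse splenic cDC2, the conventional dendritic cells that present antigen chiefly to CD4+ T cells, in 4 groups of 3.

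All mice received lipopolysaccharide (LPS, 5 mg/kg) into the peritoneal cavity, were 7 to 8 weeks old and were kept free of specific pathogens, and cDC2 were taken on day 4. L-cDC2 (tdTomato+) and M-cDC2 (tdTomato-) came from Il7r-Cre;Rosa26-lsl-tdTomato mice, in which a Cre recombinase driven from Il7r, the gene of the interleukin-7 receptor alpha chain, switches on a red label that all descendants of the cell then keep. The other groups arose after transfer: common lymphoid progenitors (CLP) or common dendritic progenitors (CDP) of WT C57BL/6J mice (CD45.2+) were put into the marrow of B6.SJL recipients (CD45.1+), and their progeny are CLP-cDC2 or CDP-cDC2. The label records past Il7r-Cre activity and not the progenitor itself, the recipients kept their own blood-forming cells, and no group went without LPS. Nothing in the labels states that replicates are separate animals, and p-values therefore measure only how far these samples spread, which may be technical. Whether L-cDC2 and M-cDC2 shared mice is not stated either.

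Cells that divide express these genes in waves. E2F transcription factors open the wave of replication genes at the passage from G1 to S phase, when licensing factors load the MCM helicase on DNA and enzymes of nucleotide synthesis supply the building blocks. The wave of mitosis genes follows in G2, when the repression by the DREAM complex at promoter elements named CHR has been lifted and B-MYB and FOXM1 act with the MuvB core. Differentiated dendritic cells divide little, and the dividing fraction of splenic dendritic cells is kept up mainly by precursors and recently formed cells. In RNA from a bulk sample, a larger share of dividing cells and more RNA per dividing cell cannot be told apart.

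The promoters of 7 members are shown because the shares of promoters with a CHR or an E2F site differ between mitosis and replication members, while both sets moved in the same contrast. The 7 are examples and do not stand for their sets. All 3 replication promoters shown hold an E2F site, which 6 of 15 replication promoters held in the full window. The stretches are the 160 bases before the start, 5′ to 3′ on the strand of the gene, from the RefSeq promoter table of GRCm38.p6. Capitals mark the CHR (TTTGAA or TTCGAA), the CCAAT box (CCAAT) and E2F sites (TTTCCCGC, TTTGGCGC, TTTCGCGC or TTTGCCGC) on either strand, so that CCAAT on the other strand reads ATTGG and TTTGAA reads TTCAAA. The first 4 are mitosis members and the last 3 replication members.
Cdk1, chr10:69352913-69353072, minus strand: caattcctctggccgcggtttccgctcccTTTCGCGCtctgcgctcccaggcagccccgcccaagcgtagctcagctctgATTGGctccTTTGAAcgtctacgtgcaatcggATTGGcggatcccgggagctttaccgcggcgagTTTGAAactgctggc
Cdc20, chr4:118437344-118437503, minus strand: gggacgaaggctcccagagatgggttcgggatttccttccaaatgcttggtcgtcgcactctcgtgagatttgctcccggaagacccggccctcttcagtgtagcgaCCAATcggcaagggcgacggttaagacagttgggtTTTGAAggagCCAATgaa
Ube2c, chr2:164769769-164769928, plus strand: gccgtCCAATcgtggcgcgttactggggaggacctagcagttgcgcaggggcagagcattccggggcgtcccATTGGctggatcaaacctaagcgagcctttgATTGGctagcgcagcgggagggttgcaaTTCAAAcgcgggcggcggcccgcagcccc
Kif11, chr19:37376222-37376381, plus strand: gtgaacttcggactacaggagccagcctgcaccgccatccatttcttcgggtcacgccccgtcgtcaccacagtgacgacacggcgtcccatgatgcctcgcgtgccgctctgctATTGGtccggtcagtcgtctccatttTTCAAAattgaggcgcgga
Mcm5, chr8:75109349-75109508, plus strand: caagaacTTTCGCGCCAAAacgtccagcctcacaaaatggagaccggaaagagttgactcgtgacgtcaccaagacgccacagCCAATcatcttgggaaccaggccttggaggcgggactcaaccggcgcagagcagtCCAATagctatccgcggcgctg
Mcm6, chr1:128359706-128359865, minus strand: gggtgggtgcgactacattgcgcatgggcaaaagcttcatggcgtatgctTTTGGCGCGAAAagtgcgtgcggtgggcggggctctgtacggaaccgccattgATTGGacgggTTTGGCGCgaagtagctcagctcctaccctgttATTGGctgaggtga
Cdc6, chr11:98907991-98908150, plus strand: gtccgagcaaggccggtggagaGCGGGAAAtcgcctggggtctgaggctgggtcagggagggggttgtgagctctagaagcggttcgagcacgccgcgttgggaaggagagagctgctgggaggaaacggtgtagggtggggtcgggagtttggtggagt
In Mcm5 and in the upstream site of Mcm6, E2F matches on both strands overlap and form a single capital run.

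Of the 40 members, 33 were in the promoter table, with 34 promoters of 300 bases each (250 before and 50 after the start). A CHR lay in 15 of 19 mitosis promoters (78.9%), in 3 of 15 replication promoters (20.0%) and in 19.2% of all 32851 promoters. An E2F site lay in 1 of 19 mitosis promoters (5.26%), that of Cdk1, in 6 of 15 replication promoters (Mcm3, Mcm5, Mcm6, Mcm7, Cdt1 and Cdc6) and in 2.26% of all promoters. A CCAAT box lay in 17 mitosis promoters (89.5%), 10 replication promoters (66.7%) and 37.4% of all promoters. The replication promoters with a CHR were those of Mcm7, Mcm2 and Cdc45. These matches are letters in a window and not measured binding, and a window without a match says nothing of the factor.

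**Figure D1:**
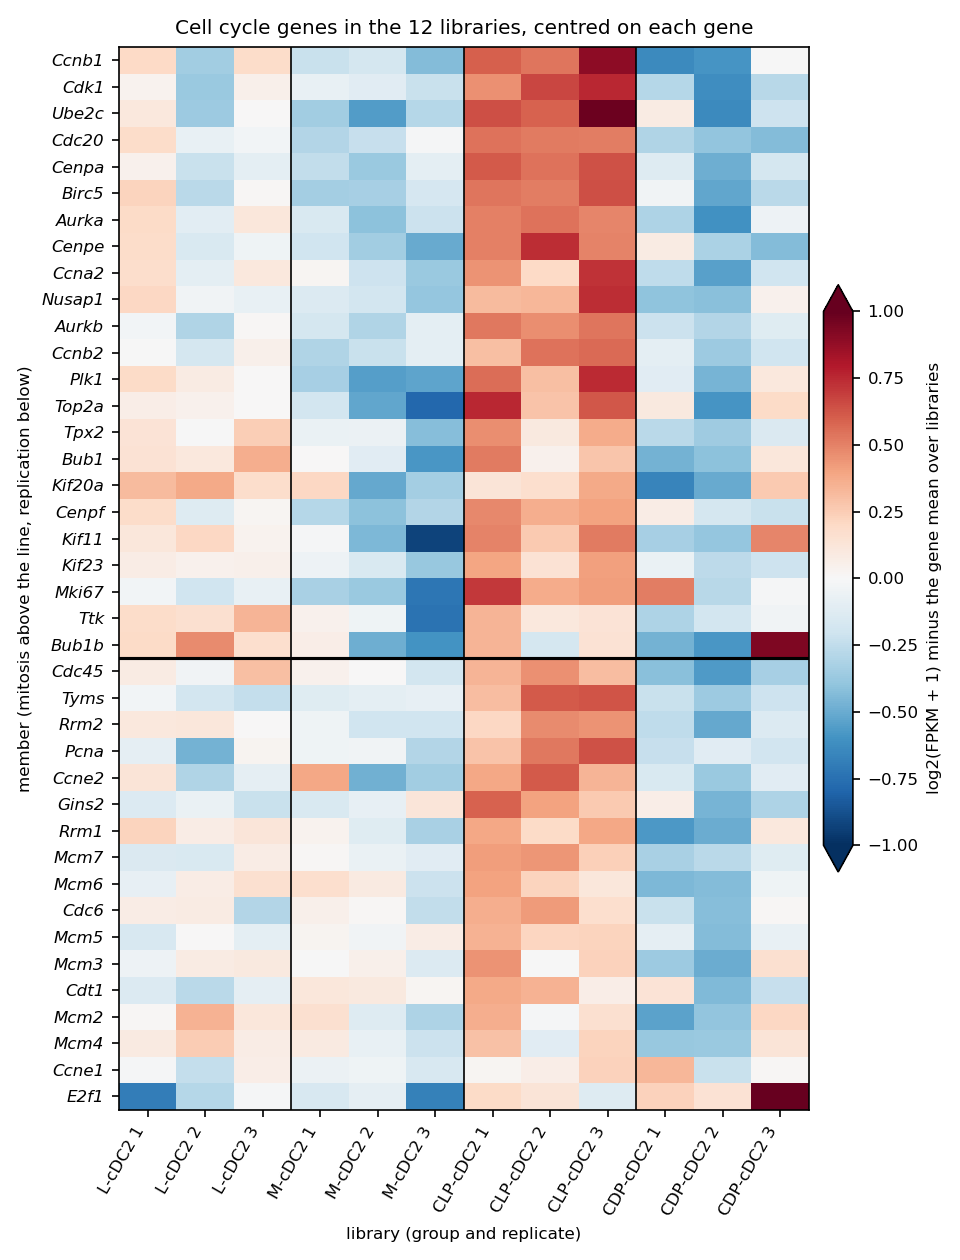
Each row is a member and each column a library. Colour is log2(FPKM + 1) minus the mean of the gene over the 12 libraries, red higher and blue lower, and the black line parts the mitosis members above from the replication members below. The CLP-cDC2 columns are red in most rows, and CDP-cDC2 replicate 3 holds the darkest cells in the rows of Bub1b and E2f1.

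The cell cycle genes were highest in CLP-cDC2. The group mean of 36 of 40 members was highest there, that of 3 members (Bub1b, Ttk and Kif20a) in L-cDC2 and that of 1 (E2f1) in CDP-cDC2. The lowest mean was in CDP-cDC2 for 26 members, in M-cDC2 for 12 and in L-cDC2 for 2. For 36 members the highest of all 12 libraries was also a CLP-cDC2 library. The median FPKM (fragments per kilobase of gene length, scaled to the assigned reads of the library) of the 23 mitosis members was 31.9, 33.3 and 37.8 in the CLP-cDC2 libraries, 25.8, 25.0 and 27.1 in L-cDC2, 21.7, 20.3 and 16.7 in M-cDC2 and 18.7, 16.1 and 24.7 in CDP-cDC2. That of the 17 replication members was 27.4, 28.4 and 27.2 in CLP-cDC2, 21.7, 19.8 and 25.3 in L-cDC2, 22.1, 21.9 and 20.7 in M-cDC2 and 21.3, 16.8 and 28.2 in CDP-cDC2. By this median the CLP-cDC2 libraries were above all other libraries for the mitosis members, while for the replication members CDP-cDC2 replicate 3 overlapped them. By the mean of log2(FPKM + 1) over the replication members it did not, with 5.01 against 5.27 to 5.34 in CLP-cDC2.

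The libraries held 26543345 to 73732243 assigned reads as recovered from the FPKM values, and the member with the fewest reads, Ttk, had at least 304 in every library. CDP-cDC2 replicate 3 and M-cDC2 replicate 3 stood apart from the rest of their groups on a principal component (-50.6 on the second and -40.5 on the third), and the counts of called members without them are given below. Of the 40 members, 27 were highest in replicate 3 among the CDP-cDC2 libraries and 26 were lowest in replicate 3 among the M-cDC2 libraries, and the median coefficient of variation over members was 18.3% in CDP-cDC2 and 9.6 to 11.2% in the other groups. No cDC2 marker of 14 was at 0 in a group, and their summed level was 21168 to 21452 FPKM in L-cDC2, 24154 to 27112 in M-cDC2, 15502 to 17950 in CLP-cDC2 and 25193 to 29208 in CDP-cDC2. Among 10 markers of precursors and progenitors, Elane, Ctsg, Mpo, Cebpe, Gata2 and Hlf were at or below 0.36 FPKM in all libraries. The other 4 (Kit, Cd34, Csf1r and Meis1) passed the filter on low values. The 10 markers summed to 25.3 to 39.8 FPKM in L-cDC2 and 25.8 to 36.6 in M-cDC2. In CLP-cDC2 they summed to 21.3 to 24.9 FPKM and in CDP-cDC2 to 37.1 to 74.3.

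CLP-cDC2 were compared with CDP-cDC2 to ask how cells of lymphoid and dendritic progenitors differ after transfer. Of the 40 members, 26 rose (65.0%; all-gene share called higher 7.02%) and 0 fell (6.12%), by limma over all 12 libraries with Benjamini-Hochberg adjusted p under 0.05 across 14538 genes. Of the mitosis members 16 of 23 rose (69.6%), and of the replication members 10 of 17 (58.8%). The median difference was 0.65 log2 units over the members, 0.69 over mitosis and 0.56 over replication members, against -0.01 over all genes tested. The libraries of the groups did not overlap for 29 members, all higher in CLP-cDC2 (all-gene share 16.7%). With protein-coding genes only, 29 members were called higher, against 10.7% of the 10113 genes tested. With a filter of FPKM of at least 5, 27 members were called higher, against 12.7% of the 8369 genes tested. Differences here and below are fitted on log2(FPKM + 1), which understates the change of low genes. Markers moved in this contrast too: 10 of 14 cDC2 markers fell and 0 rose. The summed level of 10 cDC1 markers was 242 to 297 FPKM in CLP-cDC2 and 182 to 224 in CDP-cDC2. That of 10 plasmacytoid dendritic cell markers was 160 to 302 against 85.7 to 143, with 2 of 7 tested (Ly6d and Cox6a2) called higher and 0 lower. Of the lymphocyte markers tested, 5 of 7 for B cells rose, with a summed level over 10 markers of 70.1 to 77.8 against 35.1 to 53.9 FPKM, and 2 of 5 for T cells rose (Lck and Trbc1), with a sum over 9 markers of 7.77 to 15.2 against 2.68 to 5.22. The sum of 9 NK cell markers was 8.90 to 18.6 against 6.30 to 18.6 FPKM, and that of 9 macrophage and monocyte markers was 22.5 to 89.8 against 85.4 to 116, with 3 of 7 tested called lower. Of the progenitor markers Cd34 rose (2.08, 2.51 and 2.01 against 0.47, 0.63 and 0.43 FPKM, limma adjusted p = 0.0011) and Csf1r fell by 1.86. The sum of the 10 progenitor markers was 21.3 to 24.9 FPKM in CLP-cDC2 and 37.1 to 74.3 in CDP-cDC2. That of 9 erythroid markers was 54.0 to 496 against 26.8 to 137, with 1 of 5 tested (Car2) called higher. The part of any of these markers in the levels of the cell cycle genes was not tested.

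Among the kinases and cyclins that drive mitosis, Cdk1, the catalytic kinase of mitotic entry (ENSMUSG00000019942), had 30.6, 35.6 and 37.8 FPKM in CLP-cDC2 and 17.9, 14.0 and 18.0 in CDP-cDC2. Every CLP-cDC2 library lay above every CDP-cDC2 library. The means were 34.7 ± 3.68 and 16.6 ± 2.31 FPKM (SD, n = 3), a ratio of 2.09, and the fitted difference was 1.02 ± 0.15 (SE, limma adjusted p = 0.0012). Ccnb1, cyclin B1, the partner of that kinase, had 37.8, 36.1 and 46.7 FPKM against 15.5, 16.1 and 24.6. These did not overlap either, and CDP-cDC2 replicate 3 was the closest. Its mean ratio of 2.15 and its fitted difference of 1.08 ± 0.20 (limma adjusted p = 0.0040) were the largest among the members. Ccnb2, cyclin B2, the most abundant mitosis member, had 129, 153 and 156 FPKM against 97.9, 81.0 and 91.0, without overlap, a difference of 0.69 ± 0.12 (limma adjusted p = 0.0029). Ccna2, cyclin A2, which acts in S and G2 phase, rose by 0.79, and Plk1, the polo-like kinase of the spindle poles, by 0.69.

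Cdc20 and Ube2c, which work with the anaphase-promoting complex, rose as well. Cdc20, the activator that lets this ubiquitin ligase start anaphase, had 128, 126 and 126 FPKM in CLP-cDC2 and 71.0, 66.4 and 64.9 in CDP-cDC2. Both groups were tight and far apart. The fitted difference of 0.90 ± 0.11 had the lowest adjusted p of the members (limma, 4.5e-04). Ube2c, the ubiquitin-conjugating enzyme of the same complex, had 120, 115 and 152 FPKM against 80.9, 48.7 and 66.3. The groups did not overlap, and both were wide. The mean ratio was 1.98 and the fitted difference 0.99 ± 0.19 (limma adjusted p = 0.0050).

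Members of the chromosomal passenger complex and the centromere were also among the called genes. Birc5, survivin, a subunit of the passenger complex that corrects faulty attachment of chromosomes, had 97.6, 96.0 and 105 FPKM in CLP-cDC2 and 65.5, 46.5 and 55.3 in CDP-cDC2. These groups did not overlap, with a difference of 0.84 ± 0.15 (limma adjusted p = 0.0034). Aurkb, the kinase of that complex, rose by 0.72, Aurka, the kinase of the spindle poles, by 0.83, Cenpa, the histone that marks the centromere, by 0.86, and the kinetochore motor Cenpe by 0.80. Of the spindle genes, Nusap1 rose by 0.72, Tpx2 by 0.57 and the motor of cytokinesis Kif23 by 0.49. Cenpf, a large kinetochore protein, rose by 0.52.

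The mitosis members that were not called include the most used proliferation markers. Mki67, which codes for the Ki-67 coat of mitotic chromosomes, had 31.9, 25.1 and 25.9 FPKM in CLP-cDC2 and 27.8, 15.6 and 19.0 in CDP-cDC2. CDP-cDC2 replicate 1 lay within the range of CLP-cDC2, and the difference of 0.42 ± 0.19 did not pass (limma adjusted p = 0.16). Top2a, the topoisomerase that untangles sister chromosomes, had 46.3, 33.3 and 42.3 FPKM against 29.1, 17.6 and 31.1, which did not overlap, and its difference of 0.65 ± 0.21 missed the threshold (limma adjusted p = 0.058). The checkpoint kinases Bub1 (0.53) and Ttk (0.37) and the spindle motors Kif11 (0.50) and Kif20a (0.53) were not called. Bub1b, a checkpoint protein, was chosen for mention after its values were seen: it had 14.5 and 13.4 FPKM in CDP-cDC2 replicates 1 and 2 and 40.1 in replicate 3, the highest of all 12 libraries, against 26.3, 18.1 and 22.8 in CLP-cDC2.

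**Figure D2:**
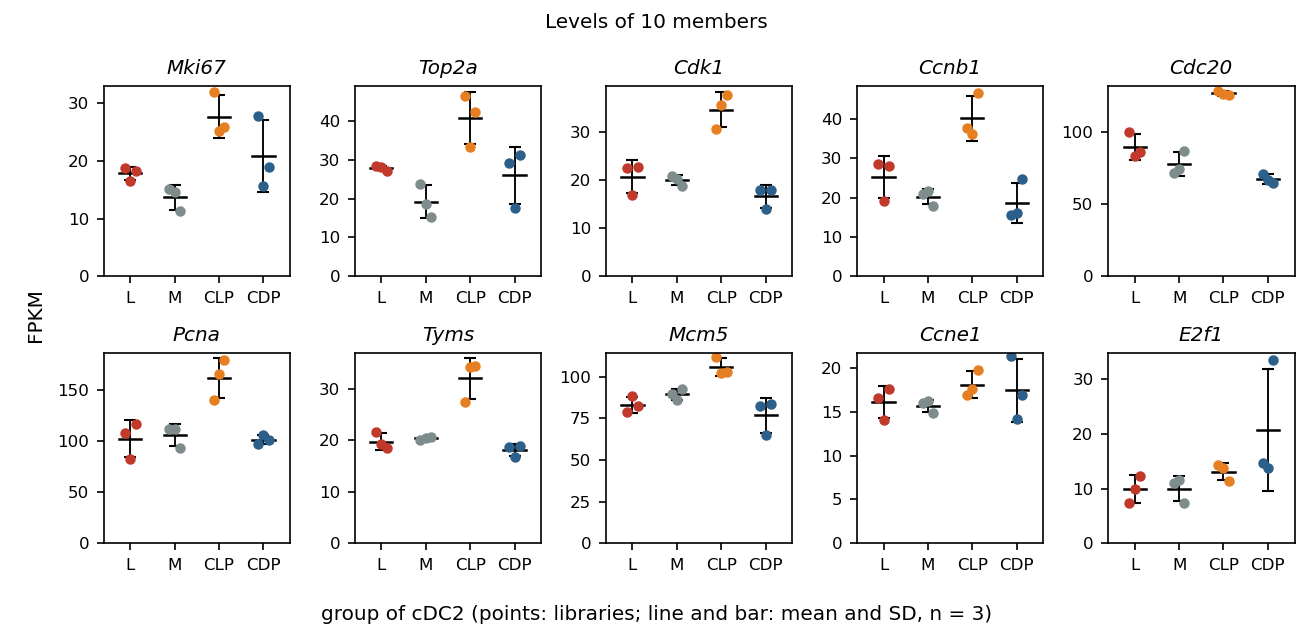
FPKM of 10 members in each library (points) with the group mean and SD (line and bar, n = 3), with the reporter groups (L-cDC2, then M-cDC2) left of the transfer groups (CLP-cDC2, then CDP-cDC2) in each panel, on linear axes from 0. The CLP-cDC2 points of Cdk1, Ccnb1, Cdc20, Pcna, Tyms and Mcm5 lie above those of all other groups, those of Mki67 and Ccne1 overlap CDP-cDC2, and CDP-cDC2 replicate 3 is the highest point of E2f1.

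Of the replication members, the genes of nucleotide supply and the polymerase clamp rose. Tyms, thymidylate synthase (dTMP synthesis), had 27.4, 34.1 and 34.4 FPKM in CLP-cDC2 and 18.6, 16.8 and 18.9 in CDP-cDC2, without overlap, a difference of 0.78 ± 0.12 (limma adjusted p = 0.0017). Rrm2, the regulatory subunit of ribonucleotide reductase, had 105, 127 and 125 FPKM against 76.1, 63.8 and 82.9, also apart, a difference of 0.68 ± 0.12 (limma adjusted p = 0.0037). Its large subunit Rrm1 rose by 0.64. Pcna, the sliding clamp of the polymerases and the most abundant member, had 140, 165 and 178 FPKM against 97.3, 106 and 100.4. Its CDP-cDC2 libraries were close together, and the difference was 0.66 ± 0.14 (limma adjusted p = 0.0098).

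The helicase and its loaders were split. Cdc45, which joins MCM and GINS in the active helicase, had 26.1, 28.4 and 25.5 FPKM in CLP-cDC2 and 15.0, 13.4 and 16.0 in CDP-cDC2. The groups were far apart, with a difference of 0.81 ± 0.13 (limma adjusted p = 0.0018), the largest of the replication members. Gins2, a GINS subunit, rose by 0.65. Among the 6 MCM subunits, Mcm7 (0.61), Mcm6 (0.56) and Mcm5 (0.46) rose, and Mcm3 (0.46), Mcm2 (0.41) and Mcm4 (0.34) were not called. Mcm5 had 112, 102 and 103 FPKM against 82.5, 64.9 and 83.5, without overlap (limma adjusted p = 0.020). Mcm3 had 108, 78.6 and 92.7 FPKM against 61.3, 55.6 and 88.3, where CDP-cDC2 replicate 3 overlapped CLP-cDC2 (limma adjusted p = 0.087). Of the licensing factors that load the helicase, Cdc6 rose by 0.53 and Cdt1 (0.45) was not called.

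Of the regulators of S phase entry among the members, Ccne1, Ccne2 and E2f1, limma called 0. An unadjusted p under 0.05 was found for 1 of them (Ccne2), and for 4175 of the 14538 genes tested. Ccne1, cyclin E1, the activator of CDK2 at the G1 to S passage, had 16.9, 17.6 and 19.8 FPKM in CLP-cDC2 and 21.3, 14.2 and 16.8 in CDP-cDC2. These overlapped, and the difference was 0.07 ± 0.15 (limma adjusted p = 0.80). Ccne2, cyclin E2, a second cyclin of the same step, had 8.89, 10.6 and 8.54 FPKM against 5.80, 4.82 and 5.98, which did not overlap, with a difference of 0.66 ± 0.21 that missed the threshold (limma adjusted p = 0.057). E2f1, the activating E2F factor, was the only member with a negative difference (-0.51 ± 0.29, limma adjusted p = 0.27). It had 14.3, 13.7 and 11.3 FPKM in CLP-cDC2 and 14.7, 13.8 and 33.4 in CDP-cDC2, where replicate 3 was the highest of all 12 libraries and the other libraries of both groups overlapped.

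The count of 26 varied with the library left out. It was 18 without CLP-cDC2 replicate 1 or without CDP-cDC2 replicate 2, 31 without CDP-cDC2 replicate 3 and 32 without both libraries that stood apart. With all libraries kept, it was 15 when the 2 groups were fitted alone and 36 with array weights. The call of 18 members held whichever of the 12 libraries was left out, among them all called members whose library values are given above except Mcm5, which was lost without CLP-cDC2 replicates 1 or 2 or CDP-cDC2 replicate 2. The other 7 (Cenpf, Kif23, Tpx2, Mcm6, Cdc6, Rrm1 and Gins2) lost it when any of 2 to 8 libraries was left out, in each case including CLP-cDC2 replicate 1 and CDP-cDC2 replicate 2. Over all alternatives their limma adjusted p reached up to 0.15, for Cdc6. No member changed sign of a called difference under any alternative that was run.

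**Figure D3:**
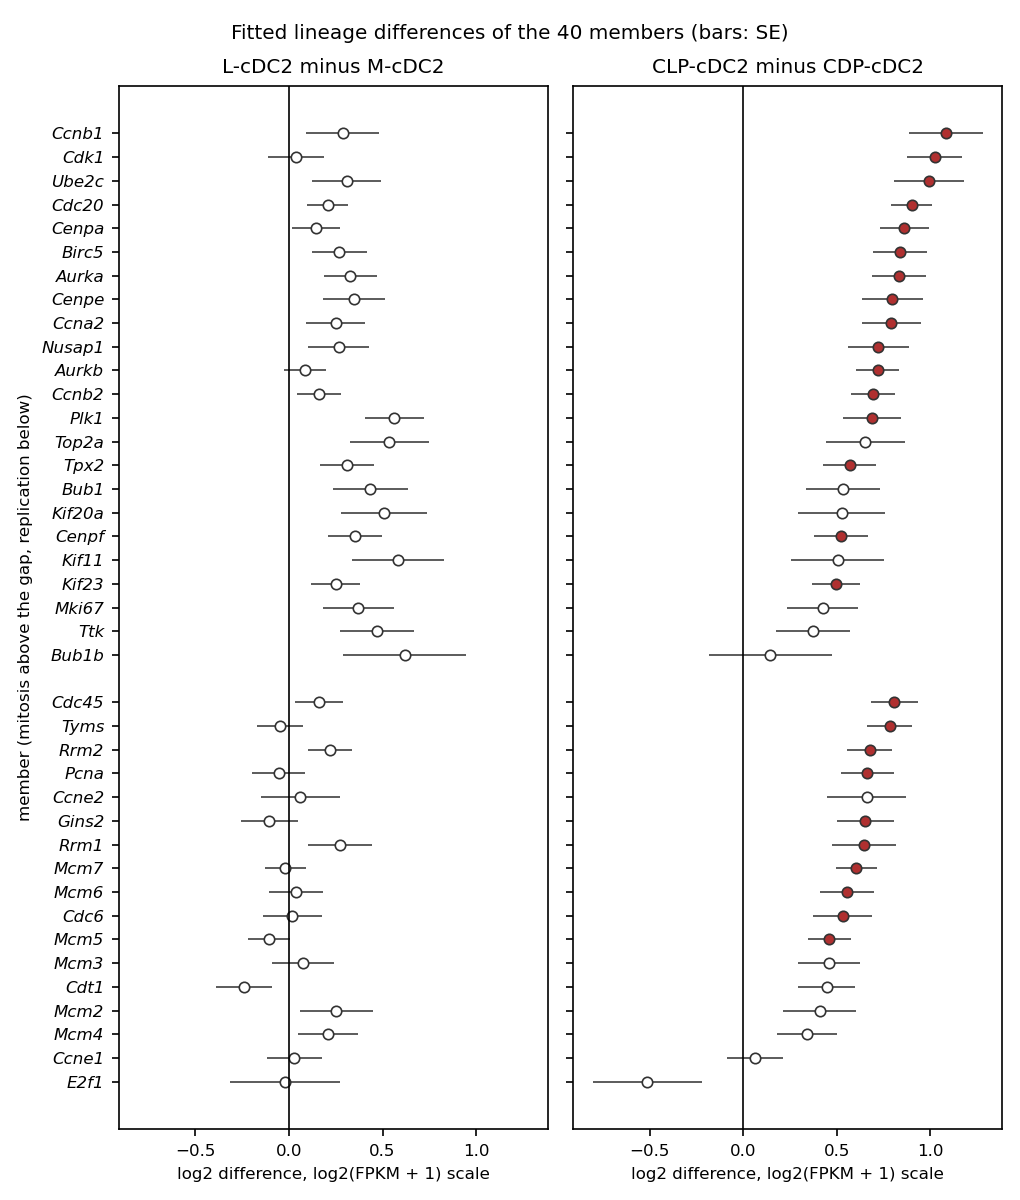
Fitted log2 difference of each member with its standard error (bar), for L-cDC2 minus M-cDC2 on the left and CLP-cDC2 minus CDP-cDC2 on the right, mitosis members above the gap and replication members below. Filled points passed an adjusted p of 0.05: 0 on the left and 26 on the right, where E2f1 is the only point below 0.

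L-cDC2 were compared with M-cDC2 to ask the same of cells that arose in place. No member was called (0 of 40; all-gene share 1.73%, with 1.29% higher and 0.44% lower, limma). An unadjusted p under 0.05 was found for 9 members, all of them mitosis members and higher in L-cDC2. Over all genes 1201 of the 14538 tested had one, in either direction. All 23 mitosis members had a positive difference, with a median of 0.31, while of the replication members 10 were positive and 7 negative, with a median of 0.03, against 0.04 over all genes tested. Over the 40 members, 33 differences were positive, and 31 after quantile normalization and 29 with median-of-ratios scaling. The libraries did not overlap for 13 of 23 mitosis and 2 of 17 replication members that were higher in L-cDC2 (all-gene share 12.7%) and for 1 member that was lower, Cdt1 (6.67%). Without both libraries that stood apart the count was also 0. Of all genes called in this contrast 74.6% were higher in L-cDC2, and 64.4% after quantile normalization.

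Plk1 came closest, with 52.6, 48.6 and 46.1 FPKM in L-cDC2 and 36.3, 31.0 and 31.5 in M-cDC2, without overlap, a difference of 0.56 ± 0.16 (limma adjusted p = 0.14). Plk1 was chosen for its library values after they were seen. Top2a had 28.4, 28.0 and 27.2 FPKM against 23.7, 18.6 and 15.3, and its difference of 0.54 ± 0.21 was not called (limma adjusted p = 0.46). The L-cDC2 libraries of Top2a were close together and M-cDC2 replicate 3 was the lowest. Mki67 had 18.7, 16.5 and 18.1 FPKM against 15.1, 14.6 and 11.2, again without overlap (0.37 ± 0.19, limma adjusted p = 0.66).

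Other members of this contrast lay closer together. Cdk1 had 22.6, 16.8 and 22.8 FPKM in L-cDC2 and 20.9, 20.3 and 18.8 in M-cDC2, which overlapped, with a difference of 0.04 ± 0.15. Pcna (108, 82.5 and 117 against 111, 112 and 93.2 FPKM) and Tyms (21.6, 19.2 and 18.5 against 20.1, 20.5 and 20.7 FPKM) overlapped too. Rrm2 had 97.9, 98.7 and 91.1 FPKM against 88.5, 79.3 and 79.1, which did not overlap, and its difference of 0.22 ± 0.12 was not called. Markers of other cells differed as well: 7 of 8 NK cell, 5 of 7 B cell, 4 of 5 T cell and 3 of 5 plasma cell markers tested were called higher in L-cDC2, and 5 of 10 cDC1 markers lower. The summed level was 199 to 294 FPKM in L-cDC2 against 9.13 to 10.9 in M-cDC2 for 9 NK cell markers, 152 to 159 against 43.8 to 57.2 for 10 B cell markers and 29.9 to 37.7 against 1.63 to 3.55 for 9 T cell markers. For 8 plasma cell markers it was 83.8 to 97.9 against 62.5 to 68.8, and for 10 cDC1 markers 168 to 189 against 277 to 296. The 4 T cell markers called higher were Trbc2, Lck, Trbc1 and Cd247, while Cd3e, of the T cell receptor complex, was at or below 0.15 FPKM in all libraries. The part of these markers of other cells in the levels of the mitosis members was not tested.

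Gene length accompanied this contrast. Over the 40 members, Spearman's rho of gene length and the L-cDC2 minus M-cDC2 difference was 0.29, and over all genes tested it was also 0.29, a description over genes that share their libraries. In length groups of 10 members from the shortest (1531 to 3140 bases) to the longest (5860 to 15433 bases), the median L-cDC2 minus M-cDC2 difference was 0.18, 0.12, 0.30 and 0.31. For CLP-cDC2 minus CDP-cDC2 rho was -0.22 over the members and -0.09 over all genes, and the medians of the same groups were 0.69, 0.66, 0.54 and 0.58. The part of length in these differences was not tested.

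The difference between the lineage contrasts (CLP-cDC2 minus CDP-cDC2, less L-cDC2 minus M-cDC2) was tested directly. It was called positive for 6 members (15.0%; all-gene share 2.38%) and negative for 0 (3.61%; 5.99% in either direction). These were Cdk1 (0.98), Tyms (0.83), Cenpa (0.72), Cdc20 (0.69), Aurkb (0.63) and Mcm7 (0.63), with limma adjusted p from 0.017 for Tyms to 0.038 for Aurkb and Cenpa. The median over the members was 0.48, against -0.05 over all genes (0.07 after quantile normalization), and 36 of 40 were positive. For Mki67 (0.05), Top2a (0.12), Plk1 (0.13) and Kif20a (0.02) the estimates were small, with standard errors of 0.27 for Mki67 and 0.30 for Top2a. Of all genes called in this test 39.7% were positive, and 51.1% with median-of-ratios scaling. With protein-coding genes only, 11 members were called positive, against 4.77% of the 10113 genes tested.

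These 6 calls were close to the threshold. The count was 0 without L-cDC2 replicate 2, 1 without M-cDC2 replicate 2 or CLP-cDC2 replicate 2, 2 without CLP-cDC2 replicate 1 and 3 without L-cDC2 replicate 3, M-cDC2 replicate 1, M-cDC2 replicate 3 or CDP-cDC2 replicate 2. It rose to 9 without CDP-cDC2 replicate 1, and to 8 without CDP-cDC2 replicate 3, and it was 6 without both libraries that stood apart. No member kept this call under every alternative.

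CLP-cDC2 were also set against L-cDC2, which shares the CLP-cDC2 and L-cDC2 libraries with the contrasts above and is not independent of them. Here 13 members rose (32.5%; all-gene share called higher 4.29%) and 0 fell (6.32%), 9 of 23 mitosis and 4 of 17 replication members. The largest was Ube2c (0.83 ± 0.19, limma adjusted p = 0.014), with 82.2, 59.1 and 76.6 FPKM in L-cDC2, all below the lowest CLP-cDC2 library of 115. Pcna (0.66), Tyms (0.66) and Cdk1 (0.72) rose, while Rrm2 (0.30), Cdc45 (0.25) and Mki67 (0.60) were not called. Over the 40 members the median was 0.41, against -0.004 over all genes, and 28 members did not overlap, all higher in CLP-cDC2 (17.8%).

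In this contrast 4 of the 13 calls (Cdk1, Aurkb, Cenpa and Tyms) held under all alternatives. The count was 4 without L-cDC2 replicate 2, 7 without CLP-cDC2 replicate 2 and 8 without L-cDC2 replicate 3, CLP-cDC2 replicate 1 or CLP-cDC2 replicate 3, and it was 16 without CDP-cDC2 replicate 3 and 18 without both libraries that stood apart. The groups of this contrast also differ in the mice and in the transfer into the marrow, which cannot be told apart from the origin of the cells. Markers moved as well: 7 of 14 cDC2, 7 of 8 NK cell, 4 of 7 B cell and 4 of 5 T cell markers tested were called lower in CLP-cDC2 (all-gene share 6.32%), and 5 of 10 cDC1 markers higher. The summed level of the NK cell markers was 8.90 to 18.6 FPKM in CLP-cDC2 and 199 to 294 in L-cDC2, and that of the cDC1 markers 242 to 297 and 168 to 189. Their part in the levels of the members was not tested.

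CDP-cDC2 and M-cDC2, the tdTomato- cells of the reporter mice, gave no called member (0 of 40; all-gene share 2.58%, with 1.62% higher and 0.956% lower, limma). An unadjusted p under 0.05 was found for 4 members, and for 2929 of the 14538 genes tested. Of these 4 members Mki67 (0.54) and E2f1 (0.89) were positive, and Cdc45 (-0.39) and Mcm6 (-0.32) negative. Mki67 had 27.8, 15.6 and 19.0 FPKM in CDP-cDC2, all above the 15.1, 14.6 and 11.2 of M-cDC2. The median over the members was -0.06, against 0.02 over all genes. Libraries did not overlap for 3 members that were higher in CDP-cDC2 (14.5%) and 6 that were lower (9.94%). Without both libraries that stood apart 0 members were called. Of all genes called in this contrast 62.9% were higher in CDP-cDC2, against 50.4% after quantile normalization and 46.2% with median-of-ratios scaling. Of 10 cDC1 markers 5 were called lower in CDP-cDC2 and 0 higher, and their part in the levels of the members was not tested. The 2 groups also differ in the mice and in the transfer, which cannot be told apart from the origin of the cells.

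**Figure D4:**
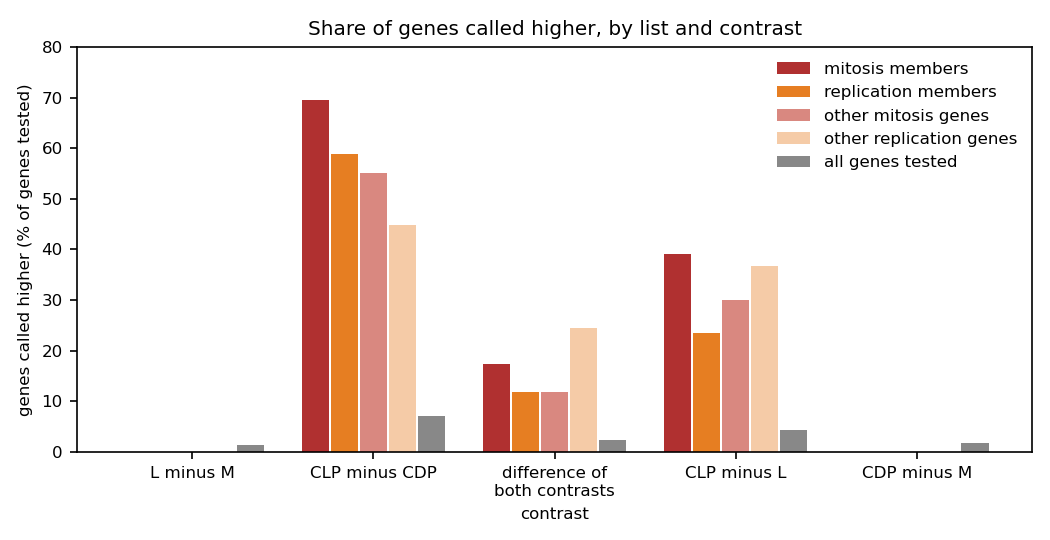
Share of each list called higher (bars, % of genes tested, from 0) in the 5 contrasts, for mitosis members (23), replication members (17), other mitosis genes (60), other replication genes (49) and all 14538 genes tested. In CLP-cDC2 minus CDP-cDC2 the shares are 69.6, 58.8, 55.0 and 44.9% against 7.02%, and no gene of the 4 lists is called higher in L-cDC2 minus M-cDC2 or CDP-cDC2 minus M-cDC2.

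Other genes of the same pathways, listed by function, moved alongside. Of 60 other mitosis genes 33 rose in CLP-cDC2 over CDP-cDC2 (55.0%; all-gene share called higher 7.02%) and 0 fell (6.12%), with a median difference of 0.63. Spc25, a subunit of the NDC80 complex that ties kinetochores to microtubules, had 30.6, 30.8 and 44.9 FPKM in CLP-cDC2 and 16.9, 15.1 and 13.8 in CDP-cDC2, apart from each other (1.15, limma adjusted p = 9.2e-04). Cks1b, a small subunit that binds cyclin-dependent kinases, had 288, 318 and 349 FPKM against 167, 140 and 135, also apart (1.11, limma adjusted p = 2.3e-04). Its relative Cks2 rose by 1.01, the mitotic kinase Pbk by 1.15, the centromere protein Cenpm by 0.94 and Cdca8, borealin, the passenger complex subunit, by 0.93. In L-cDC2 minus M-cDC2, 0 of 60 were called (all-gene share 1.73%, limma). An unadjusted p under 0.05 was found for 12 of them, against 1201 of all 14538 genes tested.

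Of 49 other replication genes 22 rose in CLP-cDC2 over CDP-cDC2 (44.9%; all-gene share called higher 7.02%) and 0 fell (6.12%), with a median of 0.45. Dut, the dUTPase that keeps uracil out of DNA, had 97.7, 99.9 and 96.1 FPKM in CLP-cDC2 and 59.0, 46.8 and 43.5 in CDP-cDC2, apart from each other (0.97, limma adjusted p = 4.2e-04). Tipin, of the complex that protects stalled forks, had 82.6, 109 and 102 FPKM against 50.4, 57.1 and 45.8, likewise apart (0.92, limma adjusted p = 0.0018). Rpa2, a subunit of the protein that coats single-stranded DNA, rose by 0.71. The clamp loader subunit Rfc3 (0.63) and the cohesion factor Dscc1 (0.72) rose, each losing the call when any of 3 libraries (4 for Dscc1), CDP-cDC2 replicate 3 among them, was left out (limma adjusted p up to 0.083 and 0.091 over all alternatives). In CLP-cDC2 over L-cDC2, 18 of 60 other mitosis genes and 18 of 49 other replication genes rose (all-gene share 4.29%) and 0 fell, and in the difference of the lineage contrasts 7 and 12 were called positive (2.38%).

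Of 22 tested genes for E2F, MuvB, retinoblastoma and MYC network proteins, 1 rose (4.55%; all-gene share 7.02%) and 2 fell (9.09%; all-gene share 6.12%) in CLP-cDC2 over CDP-cDC2, shares near those of all genes. Foxm1 had 6.61, 5.05 and 4.53 FPKM in CLP-cDC2 and 5.42, 4.28 and 11.97 in CDP-cDC2, and Mybl2, which codes for B-MYB, 13.1, 7.85 and 10.1 against 8.93, 5.52 and 10.7. Both overlapped and were not called (-0.26 and 0.29), and Foxm1 was highest in CDP-cDC2 replicate 3. Myc, at 49.8, 59.5 and 32.4 FPKM against 44.8, 38.1 and 36.8, overlapped as well (0.20). E2f2 was higher in CDP-cDC2 than in M-cDC2 (8.27, 8.00 and 12.4 against 4.80, 3.36 and 3.34 FPKM, without overlap; 1.12, limma adjusted p = 0.039), a call lost without any of 7 libraries (L-cDC2 replicates 1 or 3, any M-cDC2 library, or CDP-cDC2 replicates 1 or 3).

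The called genes of this list were MXD proteins, which pair with MAX and repress MYC targets. Mxd4 had 2.19, 2.03 and 2.08 FPKM in CLP-cDC2 and 4.56, 5.35 and 5.37 in CDP-cDC2, and fell by 0.97 (limma adjusted p = 8.2e-04). L-cDC2 (4.57, 5.24 and 4.35 FPKM) and M-cDC2 (4.53, 3.99 and 4.48 FPKM) were near the CDP-cDC2 level. Mxd1 fell by 0.85 (limma adjusted p = 0.036), a call lost without any of 7 libraries (L-cDC2 replicates 1 or 3, any CLP-cDC2 library, or CDP-cDC2 replicates 2 or 3). Mxd3, the family member known for expression in S phase, went the other way and rose by 0.74 (limma adjusted p = 0.0090), with 51.7, 45.7 and 50.9 FPKM against 36.5, 27.3 and 24.7.

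**Figure D5:**
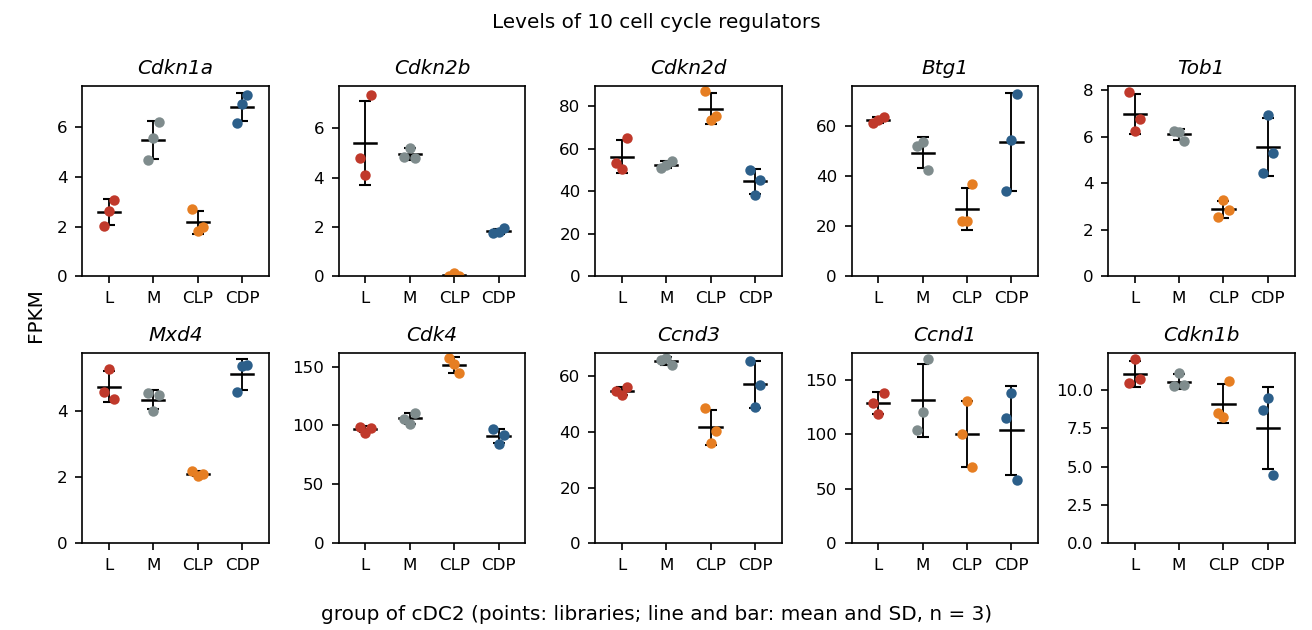
FPKM of 10 regulators in each library (points) with the group mean and SD (line and bar, n = 3), with the reporter groups (L-cDC2, then M-cDC2) left of the transfer groups (CLP-cDC2, then CDP-cDC2) in each panel, on linear axes from 0. Cdkn2b lies near 0 in CLP-cDC2, Cdkn1a is low in L-cDC2 and CLP-cDC2 and higher in M-cDC2 and CDP-cDC2, and Cdkn1b and Ccnd1 overlap between CLP-cDC2 and CDP-cDC2.

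Of 10 tested inhibitors of the cycle, 4 fell (all-gene share 6.12%) and 1 rose (7.02%) in CLP-cDC2 compared with CDP-cDC2. Cdkn1a, which codes for the CDK inhibitor p21, had 2.71, 1.82 and 1.99 FPKM in CLP-cDC2 and 6.18, 6.95 and 7.28 in CDP-cDC2. The groups were far apart, a difference of -1.31 ± 0.17 (limma adjusted p = 6.1e-04). It was also the only cell cycle gene of the lists called in L-cDC2 minus M-cDC2, with 2.02, 2.63 and 3.07 FPKM against 4.67, 5.56 and 6.21 (-0.86, limma adjusted p = 0.016). That call did not hold when L-cDC2 replicate 1 or 2, or else M-cDC2 replicate 2 or 3, was left out (limma adjusted p up to 0.097 over all alternatives). The difference between these contrasts was -0.44 and was not called.

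Cdkn2b, which codes for the CDK4 and CDK6 inhibitor p15, was listed at 0 in CLP-cDC2 replicates 1 and 3 and at 0.13 FPKM in replicate 2. It had 1.752, 1.78 and 1.94 FPKM in CDP-cDC2, 4.77, 4.09 and 7.34 in L-cDC2 and 4.85, 5.21 and 4.78 in M-cDC2, so that both groups of transferred origin lay below both reporter groups. It fell in CLP-cDC2 against CDP-cDC2 (-1.44, limma adjusted p = 4.9e-04) and against L-cDC2 (-2.59, limma adjusted p = 2.5e-06). It was also lower in CDP-cDC2 than in M-cDC2 (-1.07, limma adjusted p = 0.0096), a call lost without M-cDC2 replicate 2 (limma adjusted p up to 0.056 over all alternatives).

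Other brakes were uneven. Btg1 and Tob1, antiproliferative proteins that act on mRNA decay, fell by 0.94 and 0.74, with 22.1, 22.2 and 36.7 FPKM in CLP-cDC2 for Btg1 and 33.9, 54.3 and 72.9 in CDP-cDC2, which overlapped. The call of Btg1 was lost without CLP-cDC2 replicates 1 or 2 or CDP-cDC2 replicates 2 or 3 (limma adjusted p up to 0.12 over all alternatives). Tob1 had 2.55, 3.27 and 2.85 FPKM against 4.45, 6.91 and 5.28, without overlap. Cdkn2d, which codes for the p19 inhibitor of CDK4 and CDK6 and is known to cycle with S phase, rose by 0.81, with 87.0, 73.7 and 75.5 FPKM against 50.1, 38.5 and 45.2. Cdkn1b, which codes for p27, had 8.53, 8.22 and 10.6 FPKM against 8.69, 9.46 and 4.46 and was not called (0.29), and neither was Cdkn2c, which codes for p18 (0.04).

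Of 11 G1 cyclins, kinases and CDC25 or WEE1 genes, 3 rose (all-gene share 7.02%) and 1 fell (6.12%) in CLP-cDC2 against CDP-cDC2. Cdk4, the kinase of the D cyclins, had 157, 152 and 144 FPKM in CLP-cDC2 and 96.8, 84.4 and 92.2 in CDP-cDC2, far apart (0.73, limma adjusted p = 6.4e-04). L-cDC2 (99.0, 93.7 and 98.2 FPKM) and M-cDC2 (106, 102 and 111 FPKM) were near CDP-cDC2. Cdk2 rose by 0.54 and the phosphatase Cdc25c by 0.94, and Ccnd3, cyclin D3, fell by 0.45 (limma adjusted p = 0.041). The call of Ccnd3 was lost without any of 9 libraries (all L-cDC2, M-cDC2 replicates 1 or 2, CLP-cDC2 replicates 2 or 3, CDP-cDC2 replicates 1 or 3). Ccnd1, cyclin D1, had 99.98, 131 and 70.5 FPKM against 116, 138 and 58.4, and Ccnd2 20.0, 15.2 and 12.5 against 22.4, 11.1 and 14.6, both overlapping, with differences of -0.004 ± 0.29 and 0.02 ± 0.22. Cdk6, at 4.55, 3.96 and 2.99 FPKM against 2.71, 2.70 and 2.65, was not called there (0.38) and rose against L-cDC2 (0.83, limma adjusted p = 0.0046).

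Some members share their place in the genome with other genes, and no source used here says if reads were counted by strand. Reads of Cdc20 and Elovl1, Mcm7 and Cops6, Ccna2 and Exosc9, Nusap1 and Oip5, Cdc45 and Ufd1, Kif20a and Cdc23, and Plk1 and Gm44985, which overlap on opposite strands, may therefore be mixed. The overlapping genes Elovl1 and Cops6 reached 76.2 and 72.5 FPKM, and the others 8.19 to 21.6. Processed pseudogenes overlap Kif11 and Cenpf.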

How the data were processed

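Per the labels' protocols, cDNA was made with a SMART-Seq HT kit and indexed with Nextera XT. The authors deposited 1 table of FPKM for 55322 genes. Per the submitters' processing notes, tools included STAR 2.7.9a, Trimmomatic 0.39, featureCounts 2.0.1 and cutadapt 3.7, with no role or order stated. No source used here says which build the deposited coordinates have, and they are not printed. Depth (26543345 to 73732243 assigned reads) was recovered by taking the commonest low value of FPKM times length as 1 read. Under that assumption 45.2 to 53.6% of the values above 0 were whole within 0.02 reads, the others were fractions of that unit, and the depth is an estimate.

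Values were analysed as log2(FPKM + 1). limma 3.58.1 in R 4.3.3 (lmFit, contrasts.fit, eBayes with trend, two-sided) fitted 4 group means over 12 libraries (8 residual degrees of freedom) to the 14538 genes that reached 1 FPKM in 3 or more libraries. P-values were adjusted by Benjamini and Hochberg across the genes of each contrast and called under 0.05. The fit was also run on simulated reads with the same setting of spread for all genes and groups. The groups here differ in spread, so that run does not measure the error of the calls. Groups were taken from the labels.

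The members and gene lists were chosen with earlier results of these data known, among them results on cell cycle genes, so the counts are no independent support of those. Library values are given for Mki67, Top2a, Pcna, Ccne1, Ccne2, E2f1 and Cdk1, and per set for the 4 members with the highest mean and the 4 with the largest difference between CLP-cDC2 and CDP-cDC2. Among other cell cycle genes up to 6 called per list were named (1 of these is not reported here), with 10 regulators named always. No set test was run. Promoters come from RefSeq (GRCm38.p6). For 24 of 34 member promoters, bases just after the start were found in the early part of a GENCODE transcript of the gene. That is a check of the strand and not of the exact start. Alternatives were other pseudocounts, filters and scalings, array weights, no trend, a replicate block, protein-coding genes only, voom on recovered reads, fits of 2 groups, and each library left out. Leaving out both libraries that stand apart (replicate 3 of CDP-cDC2 and of M-cDC2) was chosen after seeing the data, as were the single markers named.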

Additional observations from a re-analysis of the deposited data

Results flagged for a closer look

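Some genes had a lineage difference (CLP-cDC2 minus CDP-cDC2, less L-cDC2 minus M-cDC2, log2 units, limma adjusted p under 0.05) that differed between the transfer and the reporter mice. Among the members these were Cdk1 (0.98), Tyms (0.83), Cenpa (0.72), Cdc20 (0.69), Aurkb (0.63) and Mcm7 (0.63). Of the 7 such genes among the other mitosis genes, those within the naming rule were Cks1b (1.14), Cks2 (1.04), Pbk (1.01), Cenpm (0.87) and Cdca8 (0.71). Of the 12 among the other replication genes, those named here are Dscc1 (1.15), Dut (1.003), Tipin (1.002), Rpa2 (0.92) and Rfc3 (0.88). Among the regulators Cdk4 (0.86) and Cdkn2d (0.72) were positive, and Cdkn2b (-1.51), Btg1 (-1.28), Mxd4 (-1.07) and Tob1 (-0.90) were negative. Under leave-one-out, the calls of Cks1b, Dut, Tipin, Rpa2, Cdk4, Mxd4 and Cdkn2b held without any of the 12 libraries, and each of the others was lost without at least 1.

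The libraries of Cdk6 moved in opposite directions without overlap: CLP-cDC2 lay above CDP-cDC2, while L-cDC2 (1.80, 1.68 and 1.63 FPKM) lay below M-cDC2 (2.099, 2.38 and 2.003 FPKM). The fitted difference of 0.60 between the contrasts did not pass the threshold.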

How the results depend on the processing

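The count of members called higher in CLP-cDC2 than in CDP-cDC2 was 26, with 18 to 31 when a library was left out. It was 15 when the 2 groups were fitted alone and 36 with array weights. Of these members 15 kept the call under all alternatives. For L-cDC2 minus M-cDC2 the count of 0 became 1 with the 2 groups alone and 5 with array weights. For CDP-cDC2 minus M-cDC2, 7 members were called lower with array weights and 0 otherwise. The count of 13 for CLP-cDC2 minus L-cDC2 was 8 without the filter on low values and 4 to 16 when a library was left out. The count of 6 for the difference of the lineage contrasts was 1 without the filter, 10 with FPKM of at least 5, 2 after quantile normalization, 22 with array weights, 3 without the trend, 11 among protein-coding genes only and 0 to 9 when a library was left out. The cause of these shifts was not tested. No called member changed its direction. Over all genes the calls moved too. Higher and lower calls ranged over the alternatives from 84 to 538 and 29 to 300 for L-cDC2 minus M-cDC2 (188 and 64 as reported), 312 to 1235 and 375 to 1102 for CLP-cDC2 minus CDP-cDC2 (1021 and 889), 80 to 962 and 175 to 1082 for the difference (346 and 525), 165 to 1193 and 475 to 1472 for CLP-cDC2 minus L-cDC2 (623 and 919), and 13 to 1194 and 34 to 828 for CDP-cDC2 minus M-cDC2 (236 and 139).

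Replicate numbers were not treated as pairs in the main fit. Deviations of libraries with the same number correlated at 0.13, -0.22 and -0.08 for L-cDC2 and M-cDC2 and at -0.03, 0.28 and 0.09 for CLP-cDC2 and CDP-cDC2. Some samples correlated best with their own number and others did not. With 3 libraries a group, whose deviations from their mean depend on one another, these values cannot exclude pairing. With a replicate block the counts were 23, 4 and 11 for CLP-cDC2 minus CDP-cDC2, the difference and CLP-cDC2 minus L-cDC2, and 0 for the other contrasts. The lowest member held 304 reads by the estimated depth.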
